A study of Homo sapiens with 36 samples.

Results

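PRRC2B, TMEM201 and ANKRD52 are 3 of the 4 genes with the most windows bound by MBNL2 in enhanced crosslinking and immunoprecipitation (eCLIP) of HEK293T cells, a human embryonic kidney line. They were taken by gene name from 9 deposited tables of enriched windows, 1 table per protein, and were selected on their number of MBNL2 windows, so those numbers describe the choice and support nothing. The 3 genes, of 11298 gene names in the tables, held 1142 of 788098 listings and 229 of the 42960 MBNL2 windows. The series held 36 libraries in 18 groups, an immunoprecipitated (IP) and an input group for each of MBNL2, CPSF5, CPSF6, EIF4B, GRB2, LGALS3, RBM10, RBM22 and RNPS1, with 2 libraries per group. Cells came from 10-cm dishes, no treatment is named, and whether each replicate came from its own culture is not stated. Complexes were recovered with an antibody to the protein or to a V5 tag, and which was used for MBNL2, and at what level a tagged protein was made, was not stated. No marker of the cell line could be checked, because the tables hold no expression values.

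A window is a stretch of at most 100 nt of an annotated feature that the authors called enriched in IP over input in both replicates. Reads were deposited as sums over the 2 replicates. The enrichment, headed in the tables as a log2 odds ratio (IP over input), was deposited for the lower and the higher replicate of each window, without saying which library that was. With no value per library there was nothing to test between samples, and the values below are descriptions. The replicate range is the spread of a single window. Neighbouring windows share reads and RNA, and a window that is not listed was either not enriched or too thinly covered. In bulk cells, more transcript and more protein per transcript cannot be told apart. The MBNL2 table held 2694580 IP and 544845 input reads in listed windows, and the depth of the libraries is unknown.

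MBNL2 is a muscleblind protein, a zinc finger family that binds short RNA elements with a GC step between pyrimidines and is known for regulating alternative splicing, poly(A) site choice and the localisation of mRNAs in the cytoplasm. PRRC2B encodes a large proline-rich, coiled-coil protein that associates with RNA and with translation initiation. TMEM201, also called SAMP1 or NET5, encodes an inner nuclear membrane protein. ANKRD52 encodes an ankyrin repeat subunit of protein phosphatase 6 (PP6), which acts on AGO2 in the microRNA pathway. Of the other proteins, CPSF5 and CPSF6 form cleavage factor Im of 3′ end processing, EIF4B serves translation initiation, RNPS1 joins exon junction complexes, RBM10 and RBM22 act in splicing, GRB2 is a signalling adaptor and LGALS3 is galectin-3.

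The sequences at the 5′ ends of the 3 mRNAs are given first, since the available sequence reaches listed 5′ UTR windows of each gene. These windows were also listed for EIF4B, as were 96.4% of the 5′ UTR windows in the whole MBNL2 list. They come from RefSeq (GRCh38.p14), whose promoter table reaches 50 bases into each transcript, and cover up to 30 bases of a window. Where the table covered a whole window, its GC content equalled the deposited one (80% for PRRC2B, 70% for TMEM201). Capitals mark the 4-base elements TGCT or TGCC or CGCT or CGCC, searched on the transcribed strand only, where matches may overlap.
ANKRD52, 5′ UTR, chr12:56258355-56258384, minus strand: gccgCGCTctccctgcagcCGCCaccgcag
TMEM201, 5′ UTR, chr1:9588911-9588930, plus strand: gtccttccacgcggagagcc
TMEM201, start codon window, chr1:9588931-9588960, plus strand: atggagggagtgagcgCGCTGCTggcccgc
PRRC2B, 5′ UTR, chr9:131394093-131394122, plus strand: gCGCCgaggctccaccgcgcagcgacgagc

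In the 50 transcribed bases of its RefSeq entry, ANKRD52 had 5 of these elements, a number that 2.04% of 35116 human promoter entries reach. TMEM201 had 2, which 27.8% of entries reach, and the PRRC2B entry that overlaps the windows had 1, which 60.3% reach. A match shows only that the letters are there. The promoter entries were not matched for GC content, which was 84.0% in these 50 bases of ANKRD52. The first ANKRD52 window (chr12:56258327-56258384) held 436 IP and 10 input reads, the most IP reads of any MBNL2 window in the 3 genes, and its log2 enrichment was 3.87 in the replicate with the lower value and 5.16 in the other. The same window held 351 IP and 10 input reads in the EIF4B table. In TMEM201 the 20-nt 5′ UTR window had 49 IP and 4 input reads for MBNL2 and the start codon window next to it 123 and 7. The PRRC2B 5′ UTR windows together had 390 IP and 52 input reads, at log2 enrichments of 1.98 and 1.85 in the lower replicate. The second of them (chr9:131394123-131394192) was the strongest PRRC2B window of EIF4B, with 1178 IP and 37 input reads.

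PRRC2B had 91 MBNL2 windows, TMEM201 78 and ANKRD52 60, while 62.2% of all gene names in the tables had at least 1. HUWE1, a ubiquitin ligase gene with 86, stood between the first and second of them and is not among the 3. The next genes were PRKDC with 58, NCAPD3, FBRSL1 and PRPF8 with 57 each, and DYNC1H1 and FASN with 55 each, followed by AGO2 with 53, EPPK1 and GSE1 with 52 each, TRRAP and USP22 with 51 each, and CNOT3 with 50. ANKRD52 thus lay 2 windows above PRKDC. PRRC2B spans 126543 bases (chr9:131373651-131500193), TMEM201 25967 (chr1:9588911-9614877) and ANKRD52 20578 (chr12:56237807-56258384). Per 10 kb of gene, TMEM201 had 30 MBNL2 windows, ANKRD52 29.2 and PRRC2B 7.19, against a median of 5.22 over 1370 genes with at least 10 MBNL2 windows and a RefSeq length. By this measure TMEM201 ranked 90, ANKRD52 97 and PRRC2B 527.

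Listings for the other 8 proteins differed widely between the 3 genes. PRRC2B was listed for all of them, with 321 windows for GRB2, 128 for RNPS1, 120 for CPSF6, 83 for RBM10, 66 for EIF4B, 27 for CPSF5 and 17 each for LGALS3 and RBM22. It ranked 7 among the genes of the RBM10 list, 12 in the LGALS3 list and 16 in the EIF4B list. Of all 11298 gene names, the GRB2, RBM10, RBM22 and LGALS3 lists held 5278, 5093, 2617 and 369, so each lacked most of them. TMEM201 had 27 windows in the other lists together, namely 8 for RNPS1, 7 for EIF4B, 6 for CPSF5 and 3 each for CPSF6 and GRB2, and none for LGALS3, RBM10 or RBM22. ANKRD52 had 41 for RNPS1, 22 for EIF4B, 16 for CPSF5, 13 for CPSF6, 10 for RBM10 and 5 for RBM22, and none for GRB2 or LGALS3. MBNL2 therefore accounted for 74.3% of the 105 TMEM201 listings, 35.9% of the 167 ANKRD52 listings and 10.5% of the 870 PRRC2B listings, against 5.45% of all listings and a median of 15.6% over the 1398 genes with at least 10 MBNL2 windows. Among these, the TMEM201 share was exceeded by those of EPPK1 (91.2%, 52 of 57) and CCDC85C (75.0%, 15 of 20), which were looked up after the share was seen. The 3 genes were chosen by the numerator of this share, which raises it, so its contrast with other genes is a description only.

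**Figure D1:**
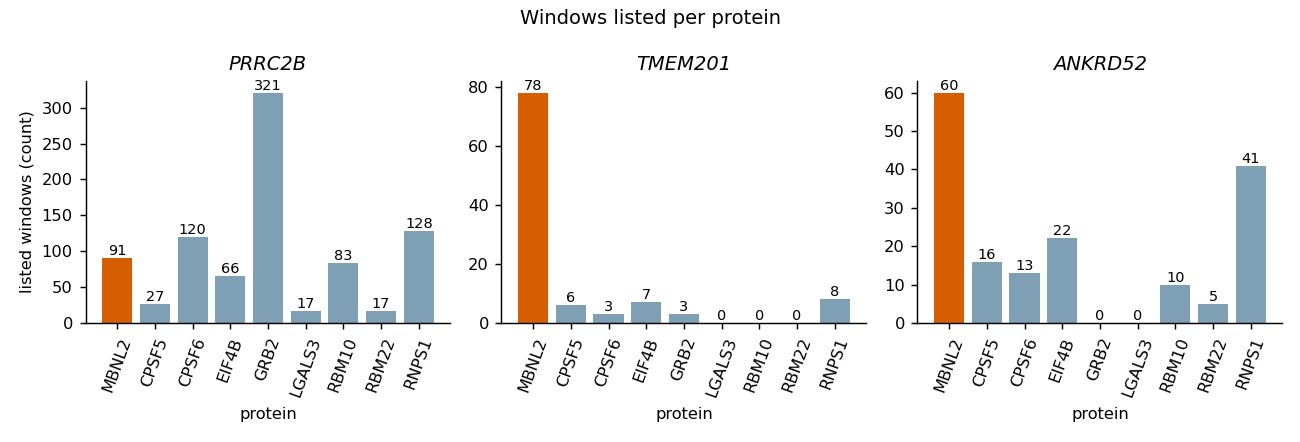
Number of listed windows per protein in each gene, with MBNL2 in orange and a separate vertical scale for each panel. MBNL2 had 78 TMEM201 windows while no other protein had more than 8, and GRB2 led in PRRC2B with 321.

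Windows of the 3 genes fell in different parts of their transcripts. ANKRD52 was bound along the mature mRNA, with 38 of 60 windows in coding sequence, 19 in the 3′ UTR, 2 in the 5′ UTR, 1 next to a 3′ splice site and none in deep introns. TMEM201 had 25 windows in deep introns, 23 in coding sequence (start and stop codon windows included), 15 in 3′ UTRs, 14 in splice site flanks and 1 in the 5′ UTR. PRRC2B had 36 in coding sequence, 28 in the 3′ UTR, 17 in deep introns, 8 in splice site flanks and 2 in the 5′ UTR. Over the whole MBNL2 list, coding sequence held 58.4% of windows, 3′ UTRs 19.7%, 5′ UTRs 11.1%, deep introns 4.61% and splice site flanks 3.36%. The remaining 2.79% were of other classes, in which the 3 genes had no window. Deep introns thus held 32.1% of TMEM201 and 18.7% of PRRC2B windows, and 3′ UTRs 31.7% of ANKRD52 and 30.8% of PRRC2B windows. The 5′ UTR share was below that of the list in all 3, at 3.33% for ANKRD52, 2.20% for PRRC2B and 1.28% for TMEM201.

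**Figure D2:**
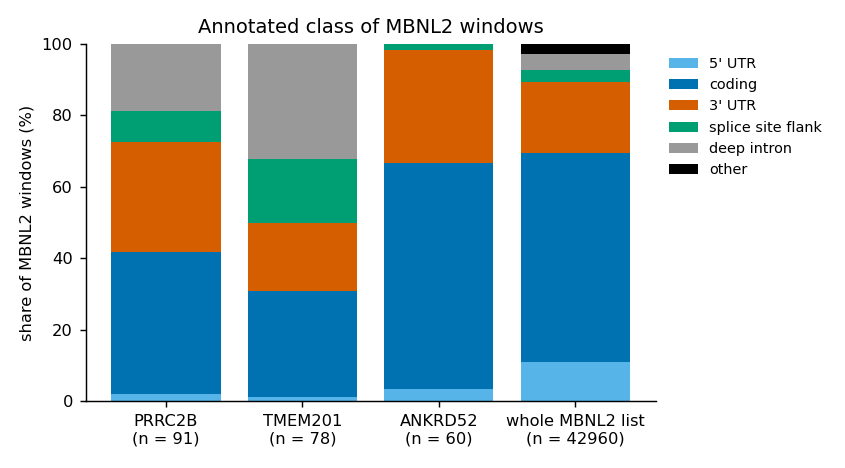
Share of MBNL2 windows by annotated class in each gene and in the whole MBNL2 list, in percent of windows. Deep introns held 32.1% of the TMEM201 windows and none of the ANKRD52 windows, against 4.61% of the list.

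In PRRC2B the densest stretch was the 3′ UTR. Its 28 windows there lay within 3828 nt, between 491 and 4221 nt from the annotated end of the gene, and held 2261 IP reads. The longest run of touching windows in the 3 genes was here, with 7 windows over 687 nt (chr9:131495875-131496561) that held 853 IP and 180 input reads, followed by runs of 6 and 5. In that run, the window chr9:131496071-131496168 had 381 IP and 40 input reads and log2 enrichments of 4.36 and 4.86. It was also listed for CPSF5, CPSF6, EIF4B, LGALS3 and RNPS1, with 79, 167, 98, 60 and 163 IP reads. The window with the highest lower-replicate enrichment, 4.44 (higher replicate 4.54), rested on 16 IP reads and 1 input read (chr9:131499408-131499505). It was 1 of 6 PRRC2B windows that overlap LOC124902290, an annotated pseudogene, by coordinates. Strands were not compared, so whether its reads are shared with that locus is unknown. Below this window and the 381-read window of that run came a deep intron window (chr9:131488985-131489081) with 25 IP reads and no input read, at 4.28 and 4.44. Of the 91 PRRC2B windows 1 had no input read, as did 3 of 78 in TMEM201 and 1 of 60 in ANKRD52, against 4.63% of the list.

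Coding windows of PRRC2B were weaker in the deposited measure. They lay in 23 annotated coding features, and their lower-replicate log2 enrichment had a median of 1.59 and ran up to 3.50, against a median of 2.17 in the 3′ UTR. The coding windows had a median of 45 IP reads and 16 input reads. All 36 were also listed for another protein, as were 85.8% of coding windows in the whole MBNL2 list. The window listed for the most proteins was one of them (chr9:131474553-131474651), with 23 IP and 10 input reads for MBNL2 and listings for CPSF6, EIF4B, LGALS3, RBM10, RBM22 and RNPS1. Of the 17 deep intron windows, 13 lay in 1 intron (chr9:131396659-131423501), where GRB2 had 224 windows and 10 of the MBNL2 windows were listed for GRB2 too. Over the whole MBNL2 list, GRB2 was listed for 19.3% of deep intron windows. That share does not allow for the many GRB2 windows in this 1 intron, so the overlap here is not a like-for-like contrast with it. Those 13 windows held 239 IP and 133 input reads, between 5 and 47 IP reads each. The snoRNA genes SNORD62A and SNORD62B lie in introns of PRRC2B and overlapped no MBNL2 window.

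TMEM201 was bound from its first to its last annotated stretch. The first deep intron held 22 windows within chr1:9589841-9594299, with 608 IP and 65 input reads in all and between 8 and 64 IP reads each. In the lower replicate their log2 enrichment had a median of 2.38 and lay between 1.27 and 4.46, and none of them was listed for another protein, against 40.7% of deep intron windows in the whole list that were. In all TMEM201 deep introns, EIF4B and GRB2 had 1 window each and the remaining proteins none. Little sharing was therefore possible, and this is not a like-for-like contrast with the list. The strongest of the 22 MBNL2 windows (chr1:9591228-9591326) had 34 IP reads and 1 input read, at 4.46 and 6.09, and windows at chr1:9594101-9594199 and chr1:9593210-9593308 reached 4.16 and 4.03 with 31 and 22 IP reads and no input read. The coding windows held most reads, 2326 of 4098 IP reads, with 248 IP and 15 input reads at chr1:9602069-9602129 and 231 and 10 at chr1:9601367-9601454. The tables name 2 transcripts for this gene. Of the 78 windows, 56 were assigned to both and 22 to ENST00000340381 alone, and the 15 windows in 3′ UTRs split into 7 and 8. The strongest MBNL2 window in any of the 3 genes was a 3′ UTR window of ENST00000340381 alone (chr1:9614579-9614677), 200 nt from the end of the gene, with 150 IP and 11 input reads and log2 enrichments of 5.93 and 6.30. It was also listed for CPSF5, whose complex binds upstream of poly(A) sites. By coordinates the window overlaps the lower-coordinate end of LOC124903837 in RefSeq, and strands were not compared. Among the 3′ UTR windows assigned to both transcripts, the one with 12 IP reads and no input read (chr1:9604856-9604954) reached 4.30 and 4.59.

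In the deposited measure ANKRD52 had the highest enrichment of the 3 genes, with a median of 2.96 for the lower replicate and 3.77 for the higher one, against 2.35 and 3.24 for TMEM201, 1.94 and 2.58 for PRRC2B, and 2.39 for the lower replicate over the whole list. The plain log2 ratio of summed reads, with 1 added to IP and to input reads, ordered the genes differently, with a median of 2.76 in TMEM201, 2.32 in ANKRD52 and 1.58 in PRRC2B, against 2.20 in the list. Scaled by the reads in all listed windows, these ratios were 0.45 in TMEM201, 0.02 in ANKRD52 and -0.72 in PRRC2B. Only windows called enriched enter these medians, and a window with more reads can be called at a weaker enrichment. The windows had a median of 15 input reads in PRRC2B, 6 in ANKRD52 and 4 in TMEM201. The part of read depth in these orders was not tested. A highest q-value of at most 0.05 was met by 50 of 60 windows in ANKRD52, 44 of 78 in TMEM201 and 52 of 91 in PRRC2B, against 54.6% of the list. The median gap between the replicates of a window was 0.83 for ANKRD52, 0.75 for TMEM201 and 0.45 for PRRC2B. This is a spread of single windows and gives no error for the medians of the genes. The coding windows of ANKRD52 lay in 28 annotated coding features, and 34 of the 38 met the q-value of 0.05. They had a median lower-replicate enrichment of 3.03, against 2.37 for coding windows of the list. Examples were chr12:56245523-56245596 with 90 IP and 5 input reads (4.38 and 4.62), which was in no other list, and chr12:56247552-56247610 with 49 and 4 (4.37 and 4.66), also listed for CPSF6 and RNPS1. In the 3′ UTR, windows at chr12:56241166-56241263 and chr12:56240573-56240671 both reached 5.15 in the lower replicate and 6.91 and 6.51 in the higher, on 16 and 20 IP reads and 3 and 4 input reads. Their GC content was low, at 33.7% and 33.3%. The window next to a 3′ splice site (chr12:56254721-56254764) had 9 IP reads and 1 input read, at 4.53 and 5.20. The 19 windows in the 3′ UTR lay between 1086 and 5236 nt from the annotated end, and the last kilobase before it held no MBNL2 window. The strongest CPSF5 window of ANKRD52 was at that end (chr12:56237807-56237904), with 31 IP and 2 input reads.

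**Figure D3:**
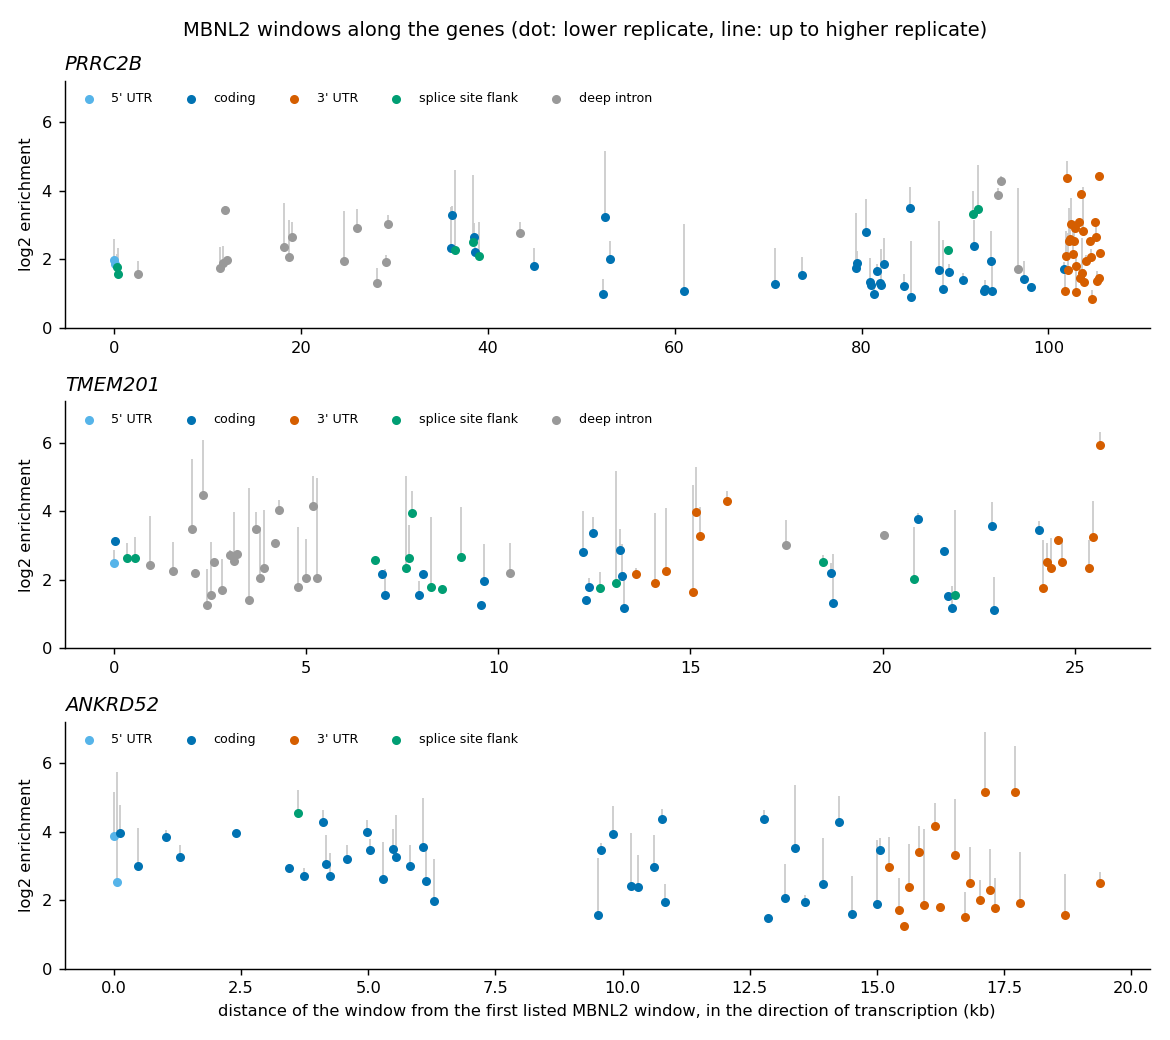
Deposited log2 enrichment of each MBNL2 window against its distance, in kb, from the first listed MBNL2 window of the gene in the direction of transcription; dots give the lower replicate, grey lines reach up to the higher replicate, and colours give the annotated class. TMEM201 had 22 windows in its first deep intron and reached 5.93 at the 3′ end, PRRC2B windows were densest in the 3′ UTR, and ANKRD52 had no deep intron window.

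At the deposited limits, most MBNL2 windows of PRRC2B and ANKRD52 were also listed for another protein at the same start, end and strand, and most of those of TMEM201 were not. The count was 78 of 91 in PRRC2B (85.7%), 48 of 60 in ANKRD52 (80%) and 15 of 78 in TMEM201 (19.2%), against 78% of the whole MBNL2 list. TMEM201 had 27 windows in the other lists together, so no more than 27 of its 78 could be shared. Its contrast with the list is therefore a description only. Stricter q-value or enrichment limits on both lists lowered the shares of PRRC2B and ANKRD52 most, while a limit on IP reads did not act this way. With at least 20 IP reads in both lists the share was 92.2% in PRRC2B, 75.5% in ANKRD52 and 22.0% in TMEM201. With a highest q-value of at most 0.01 the share was 50% in PRRC2B, 32.4% in ANKRD52 and 14.8% in TMEM201, and with a lower-replicate enrichment of at least 3 it was 40% in PRRC2B, 26.9% in ANKRD52 and 15.0% in TMEM201. The share of the whole list was not recomputed under these limits. RNPS1 shared the most windows with MBNL2 in each of the 3 genes. It was listed for 49 of 91 MBNL2 windows in PRRC2B (53.8%), 30 of 60 in ANKRD52 (50%) and 7 of 78 in TMEM201 (8.97%), against 49.2% of the list. Among coding windows alone it was listed for 34 of 36 in PRRC2B, 29 of 38 in ANKRD52 and 6 of 23 in TMEM201, against 68.0% of the coding windows of the list. RNPS1 had only 6 coding windows in TMEM201, so all of them were shared and 6 of 23 was the most possible. As a share of the RNPS1 windows, the overlaps were 38.3% of 128 in PRRC2B, 73.2% of 41 in ANKRD52 and 87.5% of 8 in TMEM201.

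EIF4B was listed for 34 MBNL2 windows in PRRC2B (37.4%), 17 in ANKRD52 (28.3%) and 6 in TMEM201 (7.69%), against 40.4% of the list, and for all 5 windows in 5′ UTRs, where the share over the list was 96.4%. The corresponding shares of EIF4B windows were 51.5% of 66 in PRRC2B, 77.3% of 22 in ANKRD52 and 85.7% of 7 in TMEM201. CPSF6 was listed for 40 in PRRC2B (44.0%), 11 in ANKRD52 (18.3%) and 2 in TMEM201 (2.56%), against 38.1% of the list. These were 33.3% of its own windows in PRRC2B, 84.6% in ANKRD52 and 66.7% in TMEM201. CPSF5 was listed for 14 in PRRC2B (15.4%), 9 in ANKRD52 (15.0%) and 4 in TMEM201 (5.13%), against 9.99% of the list. These were 51.9% of its own windows in PRRC2B, 56.2% in ANKRD52 and 66.7% in TMEM201. With the exception of 3 windows in PRRC2B, these CPSF5 overlaps were in 3′ UTRs, where CPSF5 was listed for 31.3% of the MBNL2 windows of the list. GRB2 shared 12 windows with MBNL2 in PRRC2B (13.2%, against 2.27% of the list), which were 3.74% of the 321 GRB2 windows there, and none in TMEM201. Of these 12, 10 lay in the 1 intron with 224 GRB2 windows. LGALS3 shared 15 in PRRC2B (16.5%, against 1.3%), which were 88.2% of its 17. RBM10 and RBM22 shared 8 and 3 windows in PRRC2B (8.79% and 3.30%, against 2.54% and 2.21%) and none of their 10 and 5 windows in ANKRD52. For LGALS3, RBM10 and RBM22 the share of the list also counts genes without any window of that protein. PRRC2B ranked 12, 7 and 65 among the genes of these lists, so the contrasts are not like for like.

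TMEM201 windows listed for MBNL2 alone had a median of 31 IP and 4 input reads, and those shared with another list 85 and 10. In PRRC2B the corresponding medians were 10 and 6 for MBNL2 alone and 43 and 15.5 for shared windows. In ANKRD52 they were 33 and 5.5 for MBNL2 alone and 37 and 7 for shared windows. Read depth therefore moved with sharing in TMEM201 and PRRC2B, and its part in the shares was not tested.

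The strongest window of another protein coincided with an MBNL2 window for some proteins and lay elsewhere for others. In PRRC2B the strongest GRB2 window was in a deep intron (chr9:131451490-131451588), where 144 IP reads stood against 0 input reads, and the strongest RBM10 window next to a 3′ splice site (chr9:131446985-131447084), with 88 IP reads and 1 input read. The strongest CPSF5 window of PRRC2B ended at the annotated end of the gene (chr9:131500095-131500193), with 109 IP and 2 input reads. None of these 3 was listed for MBNL2. In ANKRD52 the strongest RBM10 window (chr12:56254953-56255052, 57 IP reads and no input read) was not listed for MBNL2, and the strongest RNPS1 window (chr12:56257828-56257911, 61 IP reads and no input read) was. In TMEM201 the strongest windows of CPSF5 (chr1:9604165-9604263, 44 IP reads and 1 input read), of EIF4B (the 5′ UTR window, 73 and 1) and of RNPS1 (chr1:9602069-9602129, 24 and 0) were listed for MBNL2 too, as was that of CPSF6, while that of GRB2 (chr1:9603574-9603671, 14 IP and 2 input reads) was not.

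**Figure D4:**
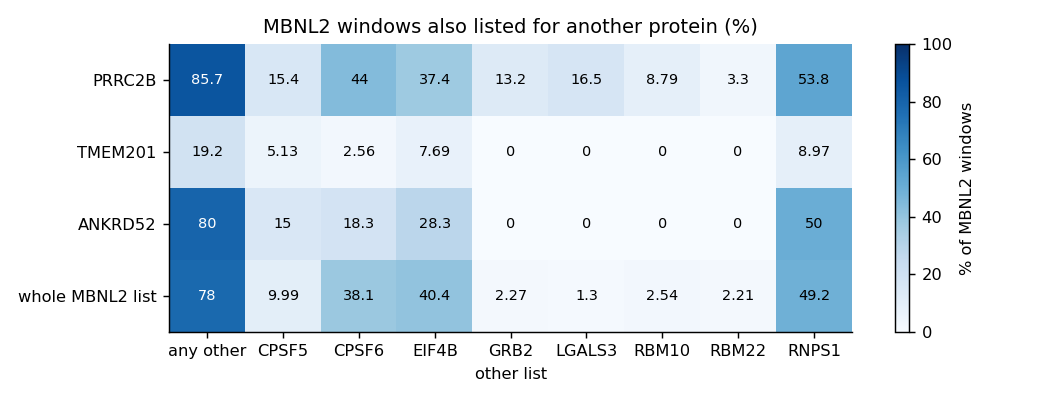
Percent of MBNL2 windows in each gene, and in the whole MBNL2 list, that are listed at identical coordinates for each other protein or for any of them. TMEM201 stands at 19.2% for any other list, against 78% of the whole list. Its 27 windows in the other lists together cap that share.

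Among the listed windows, GC content moved with both measures, in opposite directions. Within the MBNL2 windows of PRRC2B, TMEM201 and ANKRD52, the deposited lower-replicate log2 enrichment was lower at higher GC (Spearman's rho of -0.57, -0.42 and -0.41 across 91, 78 and 60 windows). The plain ratio of summed reads, log2 of IP reads plus 1 over input reads plus 1, was higher at higher GC (0.61, 0.49 and 0.45). The whole list gave -0.43 and 0.69. These are descriptions across windows that share libraries. The tables assign each window to 1 of 10 GC bins. Over the whole MBNL2 list, the deposited mean enrichment exceeded the plain log2 ratio by a median of 4.13 in the bin of lowest GC, where median GC was 28.3%, and fell short of it in the bin of highest GC, where the median difference was -0.71 at 70% GC. Equal deposited values thus stood for different read ratios at different GC content, and the baseline behind them is not stated in the tables.

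This showed in single windows of the 3 genes. A deep intron window of PRRC2B with 29% GC (chr9:131412725-131412824) was listed at 2.06 and 3.16 with 6 IP and 21 input reads. The 5′ splice site flank window chr9:131394364-131394463, with 86.0% GC, was listed at 1.79 and 2.15 with 109 IP and 15 input reads. In all, 3 of 91 PRRC2B windows and none of the 138 others had fewer IP than input reads, against 1.82% of the list. By GC content, the 29 PRRC2B windows under 50% had a median enrichment of 2.54 and a median of 14 IP reads, and the 23 windows of 60% or more 1.37 and 82. In TMEM201 the 6 windows under 50% had 3.15 and 11, and the 45 of 60% or more 2.06 and 55. In ANKRD52 the 14 windows under 50% had 3.20 and 19.5, and the 9 of 60% or more 1.95 and 69. The median GC content was 61.3% in TMEM201, 55.6% in ANKRD52 and 55.1% in PRRC2B, against 56% in the list.

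**Figure D5:**
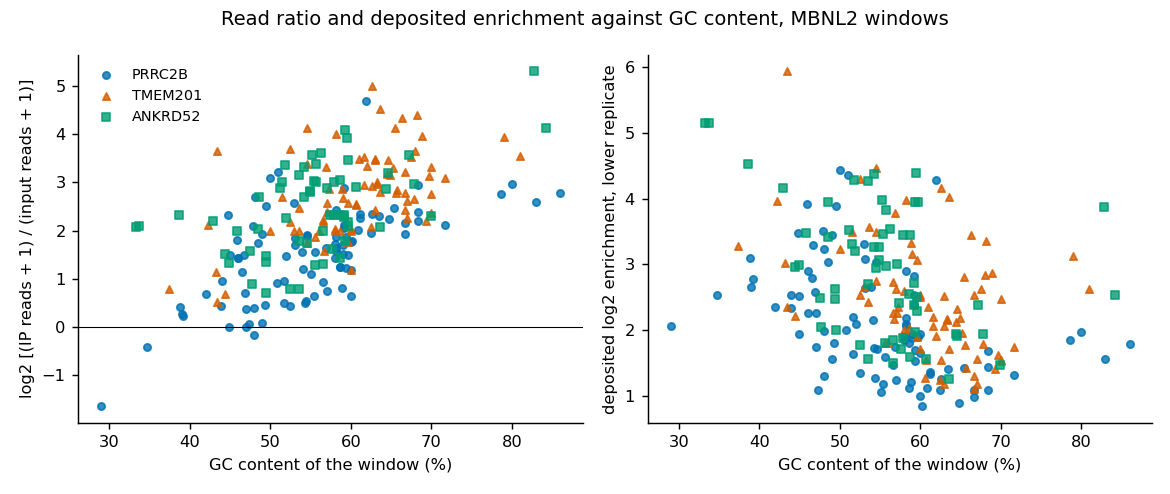
Each MBNL2 window of the 3 genes by its GC content in percent, against the log2 ratio of summed IP to input reads with 1 added to each (left) and against the deposited log2 enrichment of the lower replicate (right). Among these listed windows the read ratio rises with GC and the deposited enrichment falls with it, with Spearman's rho of 0.61 and -0.57 in PRRC2B.

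Genes with the most similar pattern over the 9 lists were found by the root mean square difference of log2(windows + 1), among genes with at least 10 MBNL2 windows. For PRRC2B these were HUWE1 (0.53), PRKDC (0.90) and PRRC2C (1.11), a paralogue. For TMEM201 they were LRRC8A (0.79), WDTC1 (0.82) and RNF19B (0.83), with 19, 19 and 15 MBNL2 windows and none for LGALS3, RBM10 or RBM22. For ANKRD52 they were MAZ (0.69), DENND4B (0.70) and E2F1 (0.75), with 27, 27 and 23 MBNL2 windows and none for GRB2 or LGALS3.

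Counts for related genes are given side by side, since the choice of PRRC2B, TMEM201 and ANKRD52 by MBNL2 windows fixes that most genes have fewer. The PRRC2B paralogues PRRC2A and PRRC2C had 39 and 45, beside 63 and 62 for EIF4B and 109 and 115 for RNPS1, where PRRC2B had 66 and 128. PRRC2A had no GRB2 window, PRRC2C 126. Of the PP6 genes, PPP6C, which encodes the catalytic subunit, had 4 MBNL2 windows, the regulatory subunits PPP6R1, PPP6R2 and PPP6R3 had 14, 9 and 5, and the ankyrin repeat subunit ANKRD28 had 4, while ANKRD44 was in no list. PPP6R3 and ANKRD28 had 551 and 258 GRB2 windows, where ANKRD52 had none. Of the nuclear envelope genes, LMNA (lamin A and C) had 10 MBNL2 windows, EMD (emerin) 9, SUN2 7, TMEM43 6, SUN1 4 and SYNE2, a nesprin gene, 0, although SYNE2 had 185 CPSF6 and 138 RNPS1 windows. RNA level and gene length were not held equal in these counts.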

How the data were processed

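Windows of 9 eCLIP tables, 1 per protein, were analysed. The genome build is hg38, per the submitters' processing notes; the sources used here name no aligner, window caller or gene annotation. Deposited by the authors were whole-number IP and input read counts per window, summed over 2 replicates, so no test between samples was possible. The authors also deposited the log2 enrichment (lower, mean and higher replicate), p-values and q-values (highest and lowest over replicates, at most 0.1999 in any list), and the GC fraction, printed here as a percent. Enrichments were used within a list only. Starts were counted from 0 in the tables and are printed 1-based.

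Members and gene lists were chosen with earlier results of these data known. Named genes were the 3 genes, those with at least 50 MBNL2 windows, the 3 most alike by pattern, and 3 lists of related genes; named windows were the strongest, the most shared and the longest run. The 5′ UTR windows, those with the most IP reads and the GC examples were chosen after their values were seen. Feature types were grouped into 5′ UTR, coding (start and stop windows included), 3′ UTR, splice site flank (adjacent and proximal) and deep intron. Shares of windows have no interval, since they count the complete list of a gene. Overlap meant identical windows. Scripts were tested on simulated data. Alternatives covered the q-value, read and enrichment limits, overlap and weighting. Python 3.11.15, numpy 2.4.6, pandas 2.3.3, scipy 1.17.1 and matplotlib 3.10.9 were used.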

Additional observations from a re-analysis of the deposited data

How the results depend on the processing

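For the 229 MBNL2 windows of the 3 genes, values changed with the windows kept. A highest q-value of at most 0.05 or 0.01 left 146 and 98 windows, a lower-replicate log2 enrichment of at least 3 left 61, and merging touching windows of a feature gave 152 regions. The lowest rank of the 3 genes by MBNL2 windows was 4, for ANKRD52. It was 7, for TMEM201, at a q-value of 0.01 and 13, for PRRC2B, at an enrichment of 3. By nucleotides covered and by IP reads it was 9 and 64, both for ANKRD52. At an enrichment of 3, ANKRD52 ranked 2 with 26 windows and TMEM201 3 with 20, while PRRC2B had 15. The share in 5′ UTR, coding sequence or 3′ UTR, 71.6%, became 81.5% and 87.8% at the q-values of 0.05 and 0.01, 82.0% with at least 20 IP reads and 87.2% weighted by IP reads. The share also in another list, 61.6%, became 49.3% and 33.7% at the 2 q-values and 26.2% at an enrichment of 3, with both lists filtered. The median GC content, 57.9%, became 59.2% with at least 20 IP reads and 53.1% at an enrichment of 3. The median log2 enrichment, 2.29 in the lower replicate, was 2.80 for the mean and 3.16 for the higher replicate, 2.93 at a q-value of 0.01 and 3.50 at an enrichment of 3. As a log2 ratio of summed reads plus 1, scaled by the reads in all listed windows, it was -0.14. This scaling sets the average of the listed windows to about 0. In PRRC2B alone the scaled value was -0.72, where the unscaled median was 1.58, against 2.20 over the list. The other 18 alternatives for these 6 values stayed within the limits used. No paired analysis was possible because the tables hold reads summed over replicates, and for the same reason no library could be left out. Windows of the other 8 proteins were not recounted under these settings. The depth per library is unknown, and windows with few input reads have imprecise enrichments.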
